A study of Mus musculus with 4 samples.

Results

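Nodal and the activins are secreted ligands of the transforming growth factor beta family. They signal through paired type I and type II serine/threonine kinase receptors, which phosphorylate SMAD2 and SMAD3, and SMAD2/3 enter the nucleus with SMAD4 and partners such as FOXH1. Nodal also needs an EGF-CFC co-receptor, of which Cripto (gene Tdgf1) is the main one in mouse embryonic stem cells. Secreted antagonists, among them LEFTY1, LEFTY2, CER1 and follistatin, restrain the ligands, and both Lefty genes are themselves induced by Nodal signalling.

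The genes described here are 10 members of this system, namely the ligand genes Nodal, Gdf3, Inhba, Inhbb and Inhbe, the co-receptor gene Tdgf1, and the antagonist genes Lefty1, Lefty2, Cer1 and Fst. Members were found as all probes whose accession in the scanner files is a RefSeq transcript of one of these genes. This gave 10 probes for 9 of the 10 genes, out of 41174 probes and 17012 named genes on the array, with 2 probes for Inhbb and 1 for each of the other genes. No probe was matched to Nodal by this rule, so the level of Nodal itself is not analysed here.

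Gene expression was measured on 1-colour Agilent arrays in 4 samples of mouse embryonic stem cells with a tetracycline (Tc) dependent knock-down of FBL, with 1 array per sample. The 2 FBL-knock down samples were cultured without Tc and the 2 control samples with Tc, which the labels give as 1000 ng/mL, in both cases for 2 days. All 4 were grown on gelatin in the presence of leukaemia inhibitory factor (LIF), and FBL (fibrillarin) is the nucleolar methyltransferase of ribosomal RNA. The groups therefore differ in Tc as well as in FBL, and an effect of Tc itself cannot be told apart from one of the knock-down. The sources used here do not give the number of clones behind the line. Nor is it stated that the arrays of a group hold RNA of separate cultures, and the p-values therefore rest on a spread that may be only technical.

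A level is the log2 signal of a probe minus that at the 75th percentile of all probes on its array, so that 0 is the 75th percentile. Levels serve to compare 1 probe between arrays, not different probes. Changes are FBL-knock down minus control on the log2 scale, with the standard error (SE) of the limma fit and n = 2 arrays per group throughout. "Rose" and "fell" are used where the p-value adjusted over all 25088 probes tested was under 0.05. Between 24491 and 26397 probes per array were well above background, 1525 of the probes tested passed (6.08%), 917 higher (3.66%) and 608 lower (2.42%), and the median change of all of them was −0.06. Fbl itself had levels of 5.98 and 5.94 in the FBL-knock down samples and 8.63 and 8.12 in the controls, and fell with a log2 change of −2.41 ± 0.25 (limma adjusted p = 5.48e-04). Across probes, the difference within the FBL-knock down pair had an SD of 0.314 and that within the control pair one of 0.517. Slide 1 held FBL-knock down 1 and both controls, and slide 2 held FBL-knock down 2 alone. The same comparison within slide 1 is therefore given beside each called member. It sets FBL-knock down 1 alone against both controls and is the same fit as leaving out FBL-knock down 2. The spread is taken from the control pair, with an SE of 0.46 for every probe, and the lone array is assumed to vary like the controls. Because every probe shares that SE, adjusted p-values of that fit are not comparable with those of all 4 arrays.

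The antagonist gene Lefty1 rose and the activin subunit genes Inhbb (at 1 of its 2 probes) and Inhbe fell in FBL-knock down cells. The other 5 of 8 tested member probes, those of Lefty2, Gdf3, Tdgf1, Fst and the second Inhbb probe, did not pass, and the probes of Cer1 and Inhba were not well above background on any array. In these bulk samples, fewer cells of a type and less RNA per cell cannot be told apart. The 3 calls among 8 member probes stand beside 6.08% called among all probes tested. The members were chosen with earlier results of these data known, so this is a description and not a test. Each of the 8 probes was well above background on all 4 arrays, so none entered the test through 1 group alone. The median change of the 8 was −0.20, against −0.06 for all probes tested, with a range of −2.28 to 1.36. The groups did not overlap at 7 of the 8 member probes, 3 of them higher and 4 lower in FBL-knock down cells. The probe of Gdf3 counts as higher by a hair only, with FBL-knock down 1 and control 1 both at 3.63. Among all probes tested they did not overlap at 51.4%, with 20.8% higher and 30.6% lower, so a lack of overlap was common on these arrays.

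**Figure D1:**
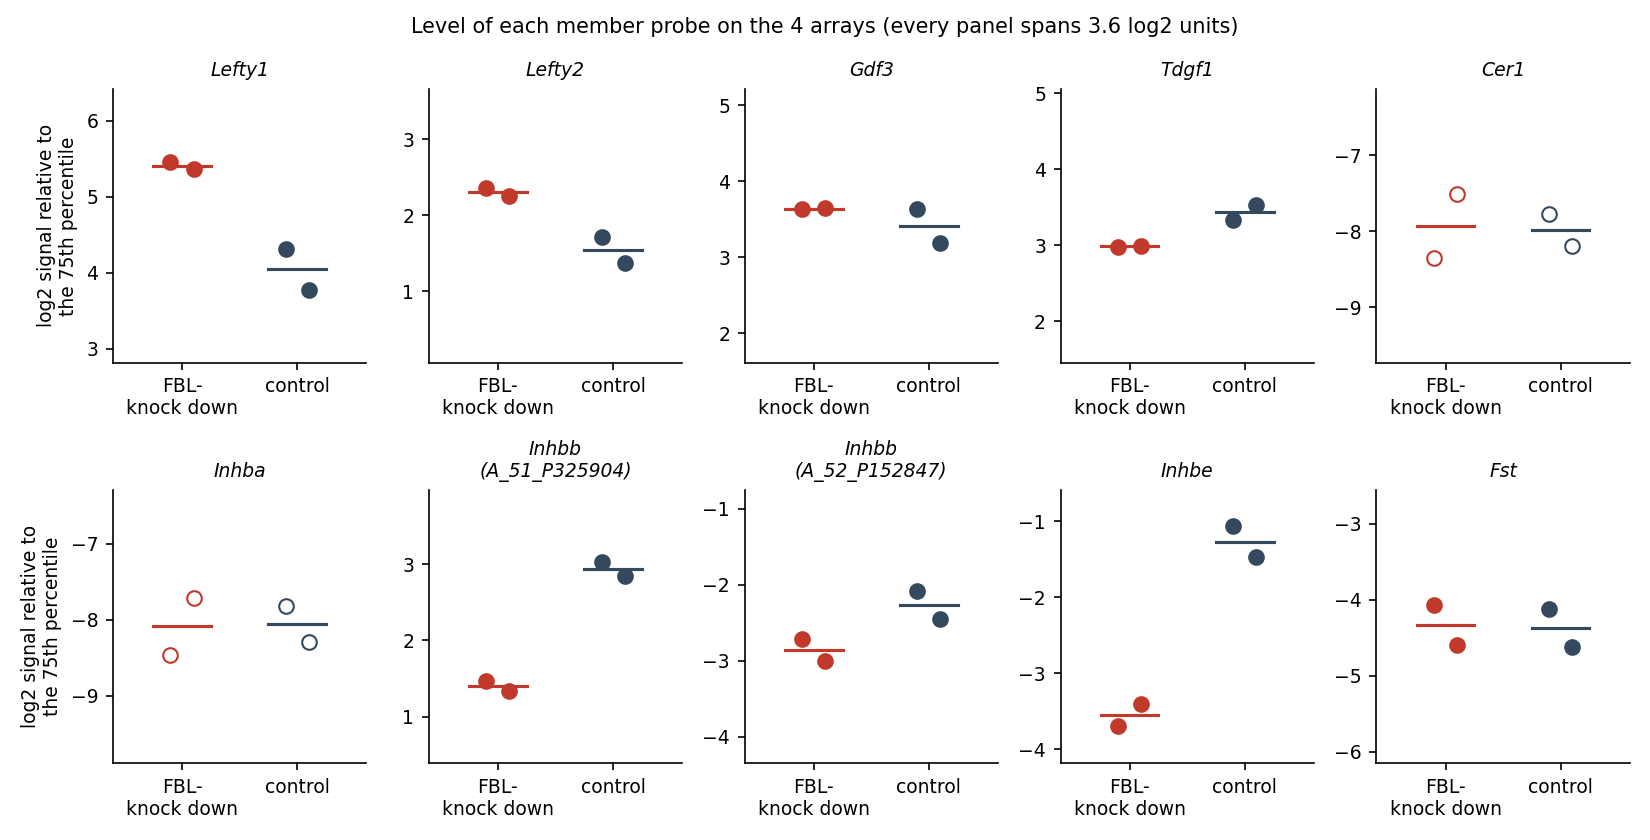
Level of each of the 10 member probes (log2 signal, 75th percentile at 0) in FBL-knock down (red, left) and control (dark, right) samples. Each point is 1 array, horizontal lines are group means, and open points mark probes not well above background on any array. The Lefty1 and Lefty2 points lie higher in FBL-knock down samples, the Inhbb and Inhbe points lie lower, and those of Fst overlap.

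Promoter sequences are shown for the 2 activin subunit genes that fell, since both encode subunits of the same family and only 1 of the promoters carries a letter match described below. They are the 250 bases before the annotated start, read from RefSeq on build GRCm38.p6, 5′ to 3′ on the strand of the gene. The Inhbe stretch is chr10:127351849-127352098 (minus strand) and the Inhbb stretch is chr1:119422249-119422498 (minus strand). Capitals mark a match to TTGCATCA.
Inhbe: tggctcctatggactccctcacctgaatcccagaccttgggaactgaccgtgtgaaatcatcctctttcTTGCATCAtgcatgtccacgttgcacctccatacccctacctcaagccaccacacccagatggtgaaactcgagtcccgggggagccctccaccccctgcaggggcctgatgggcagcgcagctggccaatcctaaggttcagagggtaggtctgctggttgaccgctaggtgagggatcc
Inhbb: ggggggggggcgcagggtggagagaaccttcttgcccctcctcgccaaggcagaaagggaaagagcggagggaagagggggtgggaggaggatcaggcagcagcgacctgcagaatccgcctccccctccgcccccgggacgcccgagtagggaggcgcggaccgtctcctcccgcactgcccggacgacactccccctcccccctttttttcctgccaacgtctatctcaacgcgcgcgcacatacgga

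The RefSeq table held a promoter for 6 of the 10 members (Nodal, Tdgf1, Cer1, Inhba, Inhbb and Inhbe). TTGCATCA, or TGATGCAA on the other strand, is a core form of the composite element bound by ATF4 with a C/EBP partner. It occurred in 1 of these 6 promoters, that of Inhbe, from position −181 to −174 before the start, and in 0.791% of all 32851 promoters of the table. The FOXH1 motif AATCCACA (0.718% of all promoters, both strands) and the palindromic SMAD motif GTCTAGAC (0.167%) occurred in none of the 6. The short SMAD element GTCTG, or CAGAC on the other strand, was present in 3 of the 6 (Inhbe, Tdgf1 and Cer1) and in 42.2% of all promoters. The motifs do not overlap each other in the Inhbe stretch. The 2 promoters also differ in base composition, with 58.8% G and C and 6 CpG pairs for Inhbe and 68% and 21 for Inhbb, where the median over all promoters was 52.4% and 6. A letter match is a description of the sequence, and binding was not measured.

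Inhbe encodes the inhibin beta E subunit, which forms activin E and is best known from liver. Its level was −3.70 and −3.40 in FBL-knock down cells, against −1.07 and −1.47 in controls. Both FBL-knock down arrays were far below both controls, and the gap between the groups was several times the spread within either. Inhbe fell 4.85-fold (95% interval 3.31 to 7.11), with a log2 change of −2.28 ± 0.25 (limma adjusted p = 7.08e-04). Within slide 1, with FBL-knock down 1 alone against both controls, the change was −2.43. The background-subtracted signals were 48.7 and 47.4 in FBL-knock down cells and 267 and 288 in controls, while the lowest signal called well above background was 8.57 to 12.5 per array. With normexp background correction, which draws low signals together, the change was −1.17 (limma adjusted p = 5.97e-05). Every probe shared the same SE in that fit, so its adjusted p is not comparable with that of the reported fit. The direction stayed, while the size of the fall depended on the background correction.

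Inhbb encodes the inhibin beta B subunit, whose dimer is activin B. At probe A_51_P325904 the level was 1.47 and 1.33 in FBL-knock down cells, against 3.04 and 2.84 in controls. The groups lay apart by far more than the arrays within each. This probe fell 2.91-fold (95% interval 2.05 to 4.13), with a log2 change of −1.54 ± 0.23 (limma adjusted p = 0.00349). Within slide 1, with FBL-knock down 1 alone against both controls, its change was −1.47. At probe A_52_P152847 the level was −2.71 and −3.01 in FBL-knock down cells and −2.09 and −2.45 in controls. Both FBL-knock down arrays were again the lower ones, but the change of −0.59 ± 0.24 did not pass (limma adjusted p = 0.215, 95% interval −1.13 to −0.04). The 2 probes gave the same direction with changes of different size. Their difference within an array was set only to an exact permutation test (p = 0.333). That test cannot go lower with 2 arrays per group and decides nothing. The mean of both probes, fitted by gene, had a change of −1.06 ± 0.23 (limma adjusted p = 0.0249). Where the probes lie in the transcript was not examined.

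Inhba encodes the inhibin beta A subunit, whose dimer is activin A. Its levels were −8.47 and −7.71 in FBL-knock down cells and −7.82 and −8.29 in controls. All 4 arrays gave signals of 1.79 to 2.55, not well above background, so no fold change is given. Gdf3 encodes a ligand of the same family that is expressed in pluripotent cells. Its level was 3.63 and 3.65 in FBL-knock down cells and 3.63 and 3.18 in controls. Control 1 stood next to the FBL-knock down arrays and control 2 below them, and the change of 0.23 ± 0.24 did not pass (limma adjusted p = 0.664, 95% interval −0.31 to 0.77).

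Tdgf1 encodes Cripto, the membrane-anchored co-receptor of Nodal. Its level was 2.98 and 2.99 in FBL-knock down cells, against 3.33 and 3.53 in controls. Both FBL-knock down arrays were lower than both controls by a small margin, and the change of −0.44 ± 0.22 did not pass (limma adjusted p = 0.311, 95% interval −0.95 to 0.06). Under none of 16 processing settings did it pass, with changes of −0.55 to −0.34.

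Lefty1 encodes a secreted antagonist that blocks Nodal and its co-receptor. Its level was 5.46 and 5.36 in FBL-knock down cells, against 4.31 and 3.78 in controls. The FBL-knock down arrays were close together and above both controls, and the controls lay 0.54 apart. Lefty1 rose 2.57-fold (95% interval 1.74 to 3.80), with a log2 change of 1.36 ± 0.25 (limma adjusted p = 0.0118). Within slide 1 the change was 1.41 and did not pass (adjusted p = 0.0680), and without FBL-knock down 1 it was 1.31 (adjusted p = 0.0870). In both of these fits the SE was 0.46, against 0.25 in the fit of all 4 arrays. Lefty1 and Lefty2 are close relatives in sequence, probe sequences were not used here, and signal from one gene on the probe of the other was not tested.

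Lefty2 encodes the other LEFTY antagonist and lies close to Lefty1 on mouse chromosome 1. Its level was 2.36 and 2.25 in FBL-knock down cells, against 1.71 and 1.37 in controls. Both FBL-knock down arrays were above both controls, in the same direction as for Lefty1, but the change of 0.77 ± 0.23 did not pass (limma adjusted p = 0.0947, 95% interval 0.24 to 1.29). It passed under 4 of 16 settings, namely normexp (adjusted p = 0.0408), trend (0.0239), trend with robust (0.0115) and without control 1 (0.0251).

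Cer1 encodes a secreted antagonist of Nodal and of bone morphogenetic proteins that marks anterior visceral endoderm in the mouse embryo. Its levels were −8.35 and −7.51 in FBL-knock down cells and −7.78 and −8.19 in controls. The signals, 1.93 to 2.75, were not well above background on any array. Fst encodes follistatin, which binds activins and keeps them from their receptors. Its level was −4.07 and −4.60 in FBL-knock down cells and −4.12 and −4.63 in controls. The values of the groups interleaved, with a change of 0.04 ± 0.28 (limma adjusted p = 0.961, 95% interval −0.58 to 0.65). Its signals were 20.7 to 37.6, where the lowest signal called well above background was 8.57 to 12.5 per array.

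**Figure D2:**
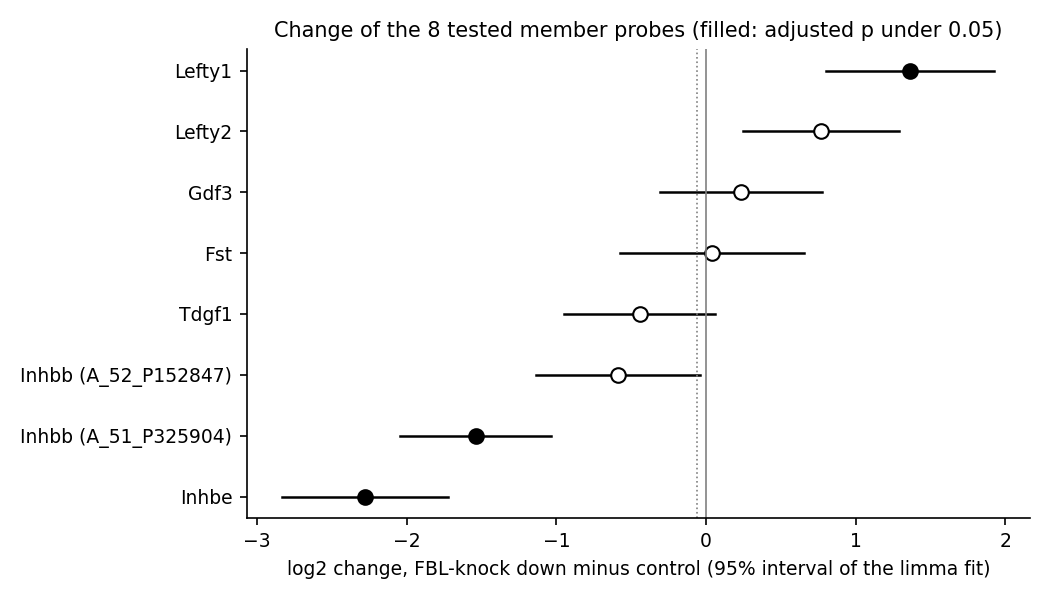
Log2 change, FBL-knock down minus control, of the 8 tested member probes, with the 95% interval of the limma fit as a bar. Filled points passed at an adjusted p under 0.05, the solid vertical line is 0 and the dotted line is the median of all probes tested (−0.06). Lefty1 lies above 0, Inhbe and the brighter Inhbb probe lie below it, and the intervals of Gdf3, Fst and Tdgf1 include 0.

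**Figure D3:**
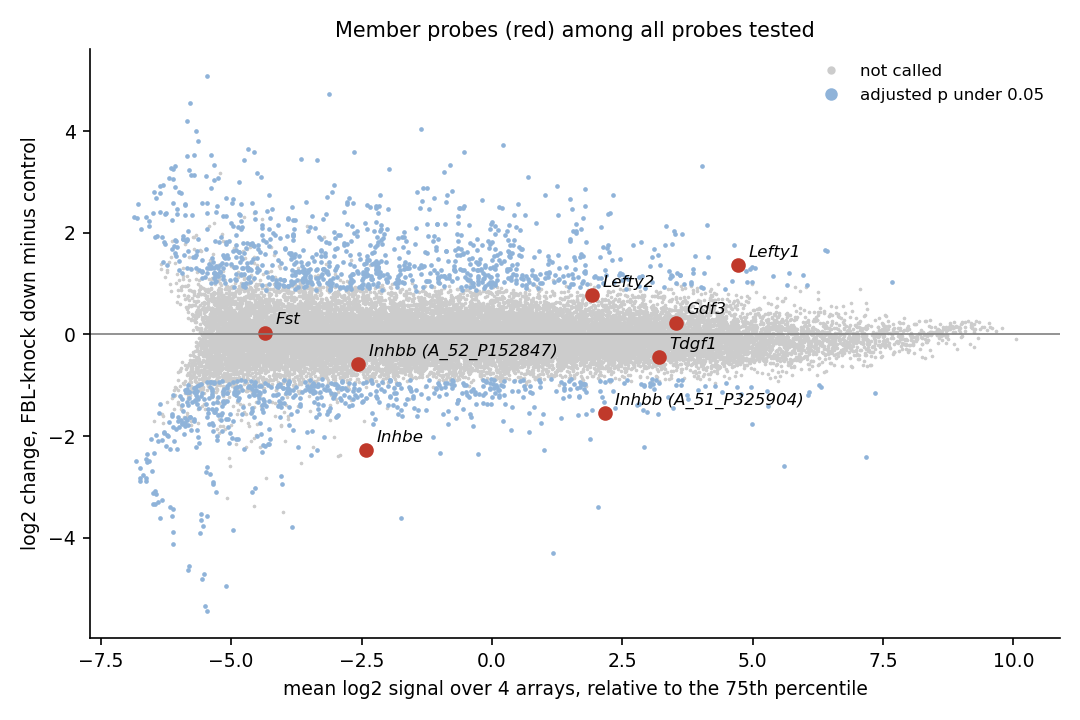
Mean level over the 4 arrays (log2 signal, 75th percentile at 0) against log2 change, FBL-knock down minus control, for all 25088 probes tested. Grey points did not pass, blue points had an adjusted p under 0.05, and the 8 tested member probes are red and named. Lefty1, Inhbe and the Inhbb probe A_51_P325904 lie outside the grey band and the other 5 lie inside it.

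The other genes of the pathway were taken from lists by role that hold 47 genes. Of these 44 had a probe, and 48 probes of 38 genes were tested. In limma 3 probes rose, 0 fell and 45 did not pass, beside the 6.08% called among all probes. At an unadjusted p under 0.05, 8 were higher and 4 lower, beside 5014 of all 25088 probes tested in either direction. The unadjusted counts of the single lists and of the markers below stand beside that same share. The median change was 0.12.

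Among the other ligands, 1 of 7 tested probes rose, that of Gdf11, which encodes a ligand of the activin type II receptors. Gdf11 had levels of −4.49 and −4.48 in FBL-knock down cells and −5.33 and −5.50 in controls, with a change of 0.93 ± 0.22 (limma adjusted p = 0.0396). Its control levels stood near the lowest level called well above background, which was −6.00 to −5.51 in controls, and under normexp its change was 0.06 (adjusted p = 0.948). Its call also ended within slide 1 (adjusted p = 0.598), without FBL-knock down 1 (0.452), with trend (0.144) and with trend and robust (0.122). Gdf1, a Nodal partner ligand and the brightest of the list, had a change of −0.38 (adjusted p = 0.472).

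None of 7 tested receptor probes passed in limma, and 1 was higher at an unadjusted p under 0.05. The brightest was that of the type II receptor gene Acvr2b, with a change of 0.35 (adjusted p = 0.484). None of 16 probes of SMADs and their nuclear partners passed either, with 2 higher and 1 lower at an unadjusted p under 0.05. Tgif2, a corepressor of SMAD2/3 and the brightest of this list, had a change of 0.05 (adjusted p = 0.939). Neither of 2 probes of proprotein convertases, the proteases that cleave ligand precursors, passed, with 1 lower at an unadjusted p under 0.05. Of these Pcsk7 was the brighter, with a change of 0.01 (adjusted p = 0.985).

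Among 9 tested probes of other extracellular and membrane inhibitors 2 rose, both of Tmeff2, which encodes a transmembrane protein with follistatin-like modules. At probe A_52_P229052 Tmeff2 had levels of −2.91 and −3.11 in FBL-knock down cells and −4.15 and −4.16 in controls, with a change of 1.14 ± 0.22 (limma adjusted p = 0.0158). At probe A_51_P376959 the change was 0.94 (adjusted p = 0.0373), and the third Tmeff2 probe was not well above background on any array. Under normexp both changes were 0.51 and neither passed (adjusted p = 0.245 and 0.249), nor did they within slide 1 (0.167 and 0.443) or without FBL-knock down 1 (0.306 and 0.526). Fstl1, a follistatin-like secreted glycoprotein, had the lowest change of the pathway lists at −0.84 (adjusted p = 0.0658), and it passed under 5 alternatives, with adjusted p of 0.00363 to 0.0356 (normexp, the filter on all arrays, trend, trend with robust, and without control 1). Nomo1, which encodes a membrane protein that antagonises Nodal and is the brightest of the list, had a change of 0.60 (adjusted p = 0.202).

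Of 7 tested probes of feedback and target genes of SMAD2/3 none passed in limma, and 1 was higher at an unadjusted p under 0.05. Smad7, the inhibitory SMAD and the brightest of the list, had levels of 0.58 and 0.41 in FBL-knock down cells and 0.86 and 0.98 in controls, with a change of −0.42 (adjusted p = 0.339). The Lefty genes, which are also such targets, are described above. The list median was −0.07.

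The labelled cell type was checked against its markers, whose summed levels are linear, in multiples of the 75th percentile, over all probes of a list. Of 11 probes for 9 embryonic stem cell markers, all well above background on every array, none passed in limma. At an unadjusted p under 0.05, 3 were lower, those of the pluripotency factors Nanog (−0.82, adjusted p = 0.0624) and Zfp42 (−0.61 and −0.54, 0.185 and 0.224). The summed level was 1479 to 1786 in FBL-knock down cells and 1434 to 1790 in controls, and without Dppa5a, which carried most of it, 699 to 730 in FBL-knock down cells and 740 to 847 in controls.

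Lefty1 and Cer1 also mark visceral endoderm. Of 21 probes for 12 endoderm markers Sox7 fell (−2.15, limma adjusted p = 5.48e-04), and Afp, Ttr and Pdgfra were not well above background on any array. A Sox17 probe was at least 1.52-fold higher in FBL-knock down cells (limma adjusted p = 0.00131), but it was at background on both control arrays and entered the test through the FBL-knock down arrays alone. A second Sox17 probe, well above background on 1 of 2 control arrays, had a change of 0.80 (adjusted p = 0.118). A Gata4 probe, well above background on 1 of 2 FBL-knock down arrays, had a change of −1.85 (limma adjusted p = 0.166). At an unadjusted p under 0.05, 3 of 13 tested endoderm probes were higher and 2 lower, beside 5014 of all 25088 probes tested in either direction. The summed level of the list was 6.33 to 6.46 in FBL-knock down cells and 6.93 to 7.07 in controls, and without Lamb1 1.70 to 1.71 in FBL-knock down cells and 1.70 to 2.24 in controls. These sums count probes that were not well above background on any array. Among them the other Gata4 probe had levels of −4.59 and −2.94 in controls, against −8.00 and −7.51 in FBL-knock down cells. Its signals, without spots flagged as outliers, were 4.35 and 5.25 in controls and 2.21 and 2.89 in FBL-knock down cells. A Pdgfra probe had levels of −3.28 and −8.08 in controls, against −7.92 and −5.36. Its signals were 2.71 and 2.81 in controls, against 2.72 and 3.69. The higher levels of these probes do not follow their signals, and no difference between the groups is read from them.

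Of 8 primitive streak and mesendoderm markers Wnt3 rose at a probe measured on all 4 arrays (2.21, limma adjusted p = 0.00114). Its other probe was 5.42-fold higher (limma adjusted p = 7.33e-04) and entered the test through the FBL-knock down arrays alone. Its control levels, −5.21 and −5.84, lay above the lowest level called well above background on those arrays. The 5.42-fold is therefore an estimate and not a lower bound. Mesp1 had changes of −0.98 and −0.60 at its probes (adjusted p = 0.0566 and 0.240), and T was not well above background. The summed level was 0.989 to 1.04 in FBL-knock down cells and 0.560 to 0.773 in controls, but without Wnt3 it was 0.424 to 0.440 in FBL-knock down cells and 0.462 to 0.622 in controls, so the higher sum was that of Wnt3.

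Of the fibroblast markers Thy1 fell at 1 of its 2 probes (−1.35, limma adjusted p = 0.00735), while Col1a1 and Col1a2 had changes of 0.47 and 0.26 (0.367 and 0.680) and Col3a1, Dcn and Postn were not well above background. The summed level was 3.34 to 3.66 in FBL-knock down cells and 4.54 to 6.98 in controls, and without Thy1 0.324 to 0.392 in FBL-knock down cells and 0.231 to 0.313 in controls. Of the trophectoderm markers Krt7 rose (1.63, limma adjusted p = 0.00445). At an unadjusted p under 0.05, 4 of 8 tested trophectoderm probes were higher and 1 lower, beside 5014 of all 25088 probes tested in either direction. Besides Krt7 and Tfap2c, the higher ones were Cdx2 (0.83, limma adjusted p = 0.0709) and Hand1 (0.71, 0.101). Krt8 (−0.22 and −0.32 at its 2 probes, limma adjusted p = 0.692 and 0.539) and Krt18 (−0.07, 0.908) had changes below 0 and did not pass. Elf5 passed as lower (adjusted p = 0.0248), but 1 of its 2 FBL-knock down spots was at background, and with that array at its detection limit the change was −0.77 in place of −1.63. The trophectoderm sum was 32.9 to 35.9 in FBL-knock down cells and 22.8 to 29.1 in controls, most of it from Tfap2c (change 0.82, adjusted p = 0.0737), and without Tfap2c the groups overlapped, at 11.5 to 12.3 in FBL-knock down cells and 11.1 to 15.2 in controls. The part of these markers in the changes of Lefty1, Inhbb and Inhbe was not tested.

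**Figure D4:**
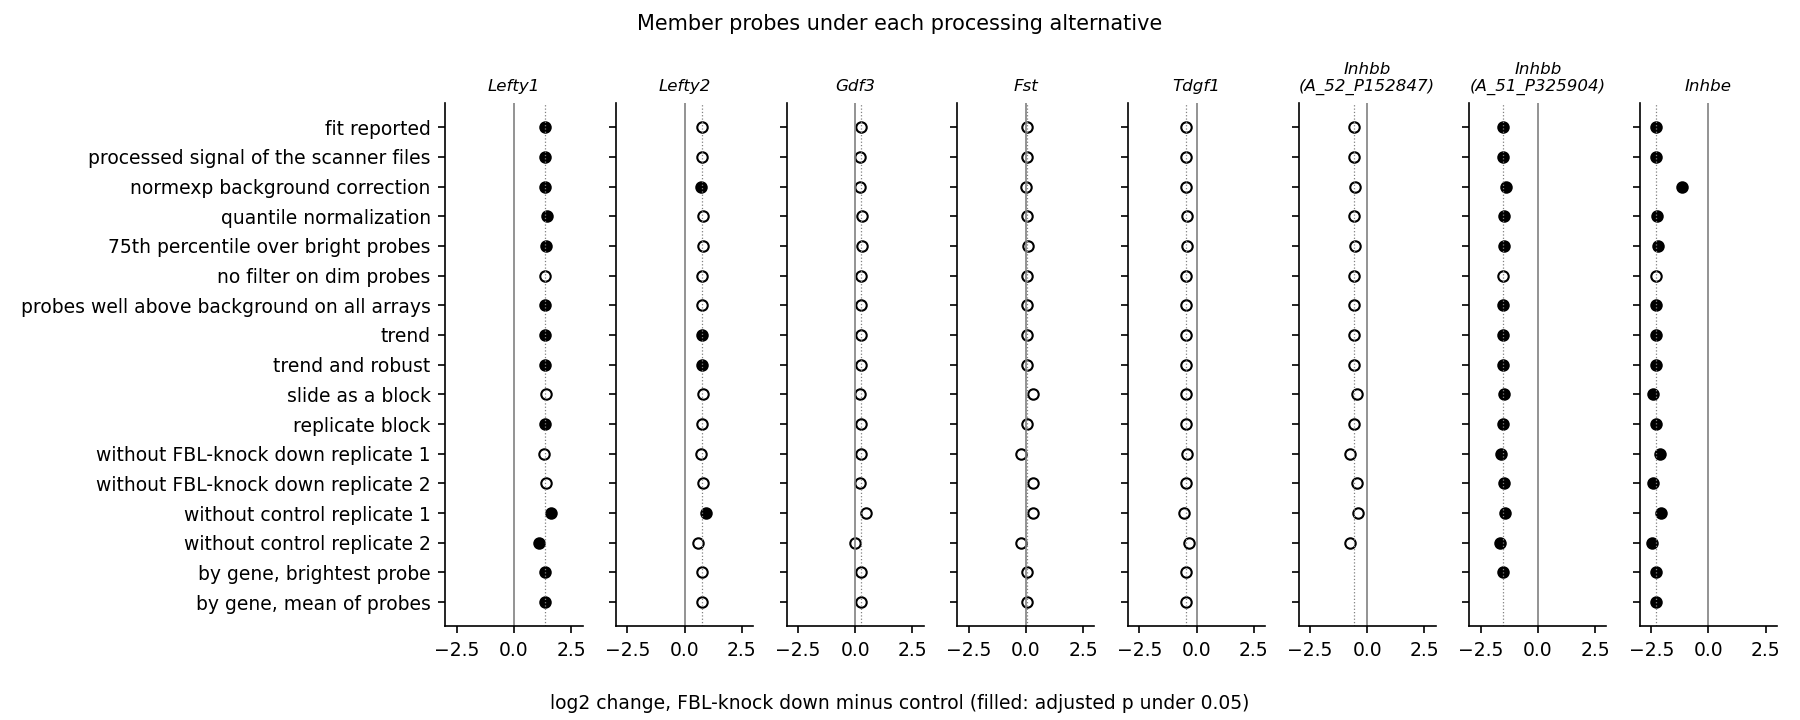
Log2 change, FBL-knock down minus control, of the 8 tested member probes (columns) in the fit reported and under each of 16 other processing settings (lines from top to bottom), of which the slide block and the fit without FBL-knock down 2 are the same fit. Filled points had an adjusted p under 0.05, the solid line is 0 and the dotted line is the change reported. Inhbe and the Inhbb probe A_51_P325904 are filled in every line in which they were fitted except the one with no filter on dim probes, Lefty1 is open in 4 lines, and Lefty2 is filled in 4.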

How the data were processed

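RNA of 4 samples was hybridised to 1-colour (Cy3) Agilent arrays. The scans were quantified with Feature Extraction 10.7.3.1, per the file headers, and the deposited intensity of a spot is its signal after background subtraction and detrending, with no scaling across arrays. A further deposited table gives log2 values. Set against the log2 scanner signal, 99.8% of entries per array differed from it by 1 constant to within 0.01, and the 75th percentiles lay at 0. Its column medians were −3.94 and −3.91 (FBL-knock down) and −3.85 and −3.98 (control). Its direction is that of the signal, with no centring of probes, and its software is not stated in the labels or headers.

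Probe values were taken from this table. Probe names matched the scanner files for all 41174 probes, and accessions matched without version to RefSeq genes of GRCm38.p6 named 24367 probes. No spot was saturated, and precision is limited by having 4 arrays. A probe was tested when well above background (gIsWellAboveBG) on both arrays of at least 1 group. Groups, taken from the titles, were compared with limma 3.58.1 in R 4.3.3 (lmFit, eBayes, two-sided), with Benjamini-Hochberg adjustment over all probes tested. The code of the fit was run on simulated data drawn from its own fitted spread. That run does not show how well this spread describes the arrays. A bound (at least N-fold) sets the brighter group's mean against the dimmer group's mean of, per array, the higher of the probe's own level and the lowest level well above background.

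Every member and probe is named, with Fbl, every other pathway gene called and the brightest of each list, and called or undetected markers. The members and lists were chosen with earlier results of these data known. Alternatives were the scanner signal, normexp (on the median signals, since the files hold no mean signal), quantile scaling, a percentile over bright probes, other filters, variance priors, blocks, left-out arrays and tests by gene. Differences between 2 probes within an array (both Inhbb probes, and Lefty1 and Lefty2) were tested by exact permutation, which cannot go below p = 0.333 with 2 arrays per group, and draw no call here.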

Additional observations from a re-analysis of the deposited data

How the results depend on the processing

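With 4 arrays and 2 per group, depth of evidence is limited by array number, and for Fst, Gdf11, Cer1 and Inhba by signal over background. Over 16 settings (15 for Inhbb, and with the slide block the same fit as the one without FBL-knock down 2) no called member changed direction. With no filter on dim probes, limma called 0 of 41174 probes (3857 at an unadjusted p under 0.05), 0 member probes (4 unadjusted) and 0 other pathway probes (9 unadjusted), and Fbl kept its change of −2.41 with an adjusted p of 0.105. That setting ended the calls of Inhbe (adjusted p = 0.109), Inhbb (0.157) and Lefty1 (0.242) with their changes as reported. The 1525 calls became 2628 with trend and robust and 680 with the slide as a block, which called 0 other pathway probes (3 unadjusted) where the reported fit called 3 and left 2 member probes called. Under normexp 1 other pathway probe was called, that of Fstl1 (−0.93, adjusted p = 0.00363), in place of Gdf11 and Tmeff2, and the change of Inhbe was −1.17. Leaving out 1 array gave 680 to 5321 calls, namely 942 without FBL-knock down 1, 680 without FBL-knock down 2, 5321 without control 1 and 3215 without control 2, and 0 to 13 calls among other pathway probes. The change of Fst ranged from −0.23 (without FBL-knock down 1) to 0.30 in these fits and was also negative without control 2, at −0.22. The fits without a control take the spread from the FBL-knock down pair alone. The cause of these shifts was not otherwise tested. Replicate numbers are shared between the groups, but deviations of same-numbered samples had a correlation of 0.02 across probes, so nothing shows that they pair the samples. With the replicate block 2238 probes were called and the same 3 member probes passed, with Lefty1 at an adjusted p of 2.06e-04. In that fit and under normexp every probe likewise shared the same SE. Their adjusted p-values are therefore not comparable with those of the reported fit.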

Other observations

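Genes next to the called members Lefty1, Inhbb and Inhbe, and next to Lefty2, which did not pass, were read from the RefSeq table. Up to 3 on each side were taken, in the order of protein-coding genes. This reading was chosen after the data were seen, and it is a description with no test. Of 27 tested probes of 17 neighbouring genes, 2 rose and 3 fell, in 3 genes, beside 6.08% of all probes tested. Ephx1, which encodes microsomal epoxide hydrolase, lies 2 genes from Lefty1 and rose at both probes, with changes of 2.36 and 2.48 (limma adjusted p = 5.95e-04 and 4.64e-04). Between Lefty1 and Ephx1, Tmem63a had a change of 0.59 (adjusted p = 0.245). On the far side of Lefty2, Sde2 had changes of −0.09 and −0.13.

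The Inhbb neighbourhood held falls on 1 side. Gli2, a transcription factor of Hedgehog signalling and the next gene to Inhbb, fell at 1 of its 2 probes, with levels of 0.00 and −0.04 in FBL-knock down cells and 1.53 and 0.91 in controls (−1.24, adjusted p = 0.0221), and had a change of −0.78 at the other (0.320). Tfcp2l1, a naive pluripotency factor and the gene after Gli2, fell at 2 of its 3 probes (−0.95 and −1.21, adjusted p = 0.0422 and 0.0123, with −0.57 at the third). On the other side Ralb had a change of −0.07, Tmem185b 0.14 and Epb41l5 −0.19. Around Inhbe no neighbour passed: Inhbc, the adjacent activin subunit gene, had a change of −0.27 (adjusted p = 0.615), Gli1 −0.10, Stac3 −0.89 (0.0533) and Mars1, the cytosolic methionyl-tRNA synthetase, −0.85 at both probes (0.0798 and 0.0758).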
